A study of Homo sapiens with 10 samples.

Results

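The cytosolic heat shock proteins and their cochaperones were followed in SNU398 cells, a widely used human line from a hepatocellular carcinoma, after knockdown of SALL4, an oncofetal transcription factor with zinc fingers. Members were chosen by gene symbol: the DNAJA, DNAJB and DNAJC families, the HSPA and HSPB families with HSPH1, BAG1 to BAG6, the CCT chaperonin subunits with TCP1, HSP90AA1, HSP90AB1, HSPD1, HSPE1, HSF1 and HSF2, leaving out the endoplasmic reticulum chaperones HSPA5, DNAJB9, DNAJB11 and DNAJC3. This gave 82 of the 56299 genes in the deposited tables. RNA was taken 72 hours after transduction with a single hairpin, shRNA-2, against SALL4 (2 libraries) or with scrambled shRNA (2 libraries), and both groups grew in RPMI with fetal bovine serum and carried a transduced hairpin. SALL4 binding was mapped in the same line with CUT&RUN, where a nuclease tethered to the antibody releases the DNA at bound sites (3 libraries), and the IgG libraries were not analysed here. With 1 hairpin, effects of SALL4 loss and of the hairpin itself cannot be told apart, and the labels do not say whether replicates were separate cultures, so the spread behind each p-value may be technical.

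Chaperones bind proteins that are not folded and keep them from aggregating. HSP70 proteins (HSPA) do so in cycles of ATP hydrolysis that J-domain proteins (DNAJ) start. Several BAG proteins, and HSP110 proteins such as HSPH1 and HSPA4, end these cycles by releasing ADP. HSP90 takes over partly folded clients such as kinases and steroid receptors, the ring-shaped chaperonin TRiC (the CCT subunits with TCP1) folds actin and tubulin, and small heat shock proteins (HSPB) hold unfolded chains without ATP. The factor HSF1 switches on many of these genes under heat or proteotoxic stress by binding heat shock elements, and many tumours depend on high chaperone levels.

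The label cytosolic does not hold for all members. Of the 76 tested, 8 were assigned to mitochondria (HSPA9, HSPD1, HSPE1, DNAJA3, DNAJC11, DNAJC15, DNAJC19 and DNAJC30). Another 7 were assigned to the endoplasmic reticulum (HSPA13, DNAJC1, DNAJC10, DNAJC16, DNAJC25, DNAJB12 and DNAJB14). The assignment may miss other members of these organelles. The symbol rule also took in HSPB11, a subunit of intraflagellar transport, and the pseudogene HSPA7. The remaining 6 members, DNAJB13, DNAJB3, DNAJB8, HSPA7, HSPB2 and HSPB3, had 0 to 14 counts in each library and were not tested.

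Libraries held 158930364 to 225620805 gene counts. Levels are given as CPM (counts relative to the scaled library size), per gene and not per length, so they are compared between libraries and not between genes. SALL4 stood at 21.6 and 18.7 CPM in knockdown replicates 1 and 2 and at 74.5 and 58.7 CPM in scramble replicates 1 and 2 (log2 fold change -1.72 with SE 0.19, edgeR, Benjamini-Hochberg adjusted p = 5.59e-06). The 9 hepatic and carcinoma markers summed to 15.1 to 21.2 CPM over the libraries, most of it GPC3. ALB stood at 0.415 to 0.723 CPM, and AFP, TTR, APOB, HNF4A and KRT18 at 0.0642 CPM or below. These markers, ALB among them, were therefore absent or nearly so. The rest of the list, APOA1 and KRT8, is given only within the sum. Fibroblast markers summed to 122 and 152 CPM in the knockdown libraries and to 168 and 278 CPM in the scramble libraries, most of it LUM. Of these 5 fibroblast markers 4 were lower at an unadjusted p under 0.05 and the median log2 fold change was -0.74. THY1 was called by edgeR (-0.77) but by none of the fits without 1 replicate, and DESeq2 called THY1 and LUM (-0.74). Their part in the results was not tested. Leukocyte and endothelial markers summed to at most 0.781 and 0.252 CPM.

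Few members changed. Of the 76 tested, 4 were lower after knockdown at an adjusted p under 0.05 (HSP90AB1, HSPA13, DNAJC22 and DNAJC25) and 0 were higher. This is 5.26% of the members, against 5.55% of all 25804 genes tested, of which 3.25% were lower and 2.31% higher. At an unadjusted p under 0.05 there were 15 of 76 members, 14 lower and 1 higher, DNAJC10. Among all genes 18.1% had such a p in either direction, and this share was not split by direction. DESeq2 called 6 members, all lower, against 9.79% of the genes to which it gave an adjusted p. The count in either direction was therefore near the background. HSPA13 and DNAJC25 are among the 7 members assigned to the endoplasmic reticulum. This leaves 2 calls among the 61 tested members assigned neither to that organelle nor to mitochondria. In bulk RNA, a change in the mix of cells and a change in RNA per cell cannot be told apart.

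Members nevertheless lay more often on the low side. The log2 fold change was below 0 in 49 of 76 members (64.5%) and in 49.8% of all genes, and the members' median was -0.10 against 0.00 for all genes. The members' median was -0.04 or -0.19 when scramble replicate 1 or 2 was left out. It was -0.06 or -0.18 when knockdown replicate 1 or 2 was left out, and -0.06 with scaling by total counts. The size of the shift also depended on the count table. In the combined count matrix described below, every CCT subunit and both HSP90 genes were closer to 0. HSPA8 was -0.25 there against -0.41, and HSPD1 was -0.28 against -0.45. Some members were not closer to 0, such as BAG3 (-0.45 against -0.43) and DNAJB4 (-0.61 against -0.58). The groups did not overlap in 32 members that were lower after knockdown (42.1%, against 22.9% of all genes) and in 6 that were higher (7.89%, against 24.2%). Among the 58 members at 10 CPM or more on average these shares were 43.1% and 8.62%, against 26.9% and 24.4% of genes at that level, and 2 of the 58 were called, against 8.19%. The summed level of all members was 18250 CPM in knockdown replicate 1 and 19642 CPM in knockdown replicate 2, and 25464 and 21766 CPM in scramble replicates 1 and 2. Scramble replicate 1 was thus the highest library. Scramble replicate 2 lay below it in 55 of the 76 members, with a median log2 difference of -0.14 between them. That median was 0.01 over all genes tested and -0.05 over all genes at 10 CPM or more.

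**Figure D1:**
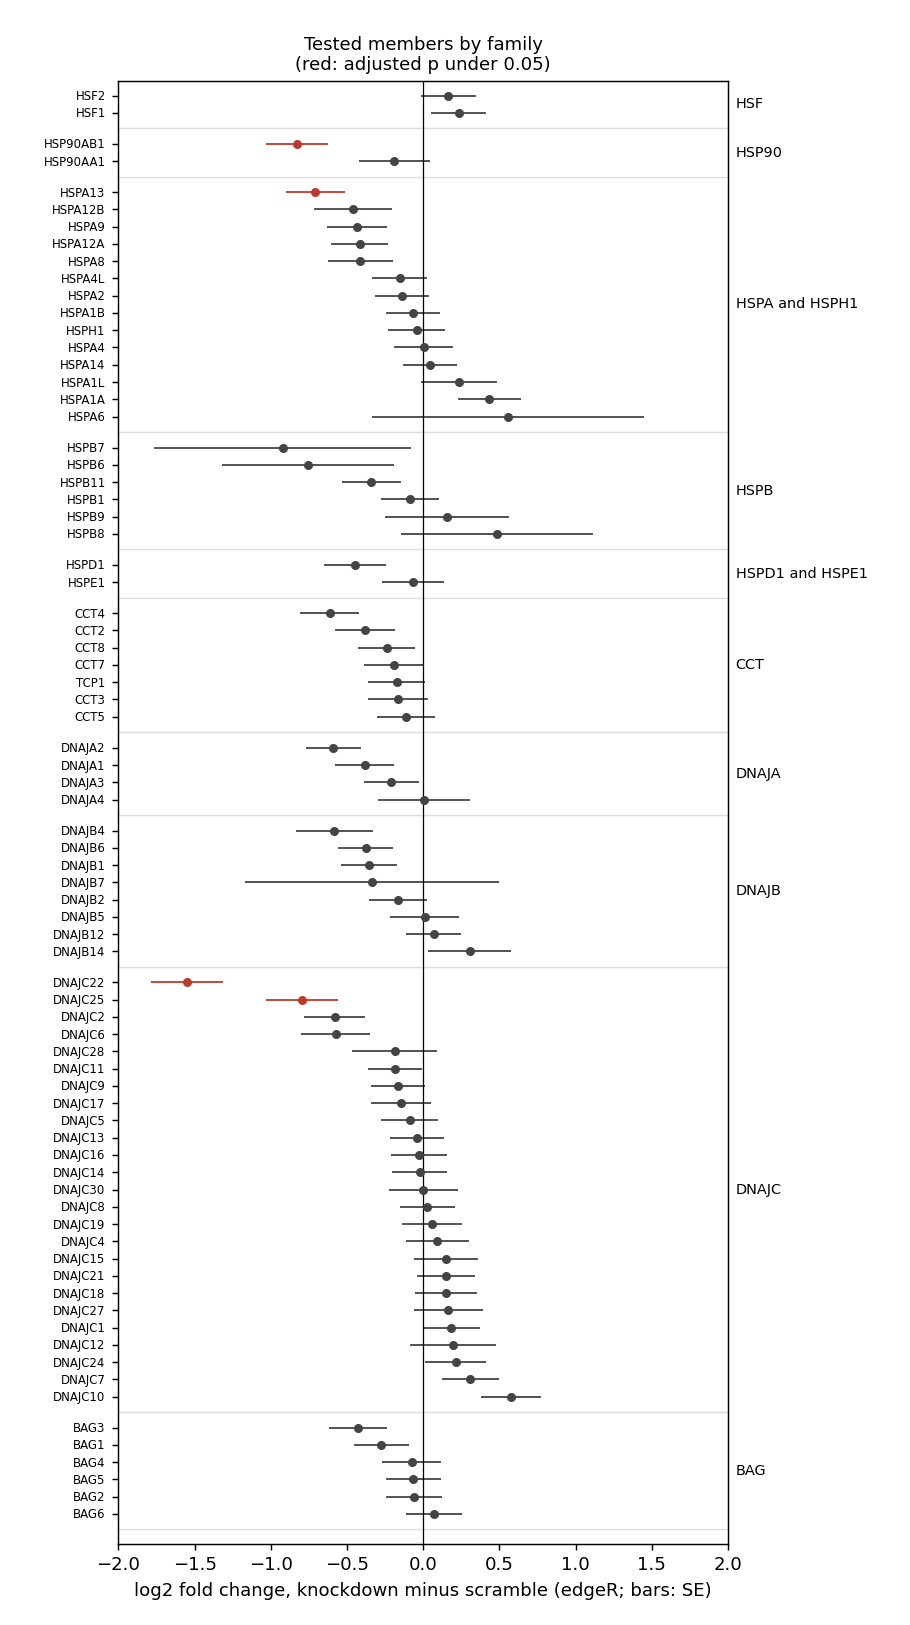
Log2 fold change of each tested member, knockdown minus scramble (x axis; edgeR, bars are 1 SE), ordered by family, with members past the adjusted threshold in red. Most points lie within 0.5 of 0, the 4 red points all lie below 0, and every CCT subunit lies below 0.

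HSP90 proteins fold signalling clients in the cytosol, HSP90AB1 as the constitutive form and HSP90AA1 as the more heat-inducible form. HSP90AB1 (chromosome 6, 44246194 to 44253883, hg38) stood at 1599 and 1671 CPM in knockdown replicates 1 and 2 and at 3053 and 2746 CPM in scramble replicates 1 and 2. The groups did not overlap, and the gap between them was wider than the spread within either. The group means were 2899 ± 217 CPM in scramble and 1635 ± 50.9 CPM after knockdown (SD, n = 2 each), 1.77-fold apart. The log2 fold change was -0.83 with an SE of 0.20, and the call passed (edgeR, Benjamini-Hochberg adjusted p = 0.0149). Without scramble replicate 1 the log2 fold change was -0.75 and the call was lost (adjusted p = 0.128), and the adjusted p ranged from 0.000395 to 0.128 over 11 alternatives. The log2 fold change ran from -0.89 to -0.57 over the 11 alternatives, and the smallest change, -0.57, came from the combined count matrix described below. The 11 alternatives, here and for the genes below, carried no term for the replicate number. Reads of 5 HSP90AB1 pseudogene symbols came to at most 0.115% of its own level in each library.

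HSP90AA1 was measured at 2683 and 2295 CPM after knockdown and at 3555 and 2121 CPM in scramble replicates 1 and 2. Scramble replicate 2 was the lowest library and scramble replicate 1 the highest, so the groups overlapped. Its log2 fold change was -0.19 (SE 0.23, adjusted p = 0.765), and without scramble replicate 1 it was 0.23. Whether the 2 HSP90 genes differed in response was not tested.

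**Figure D2:**
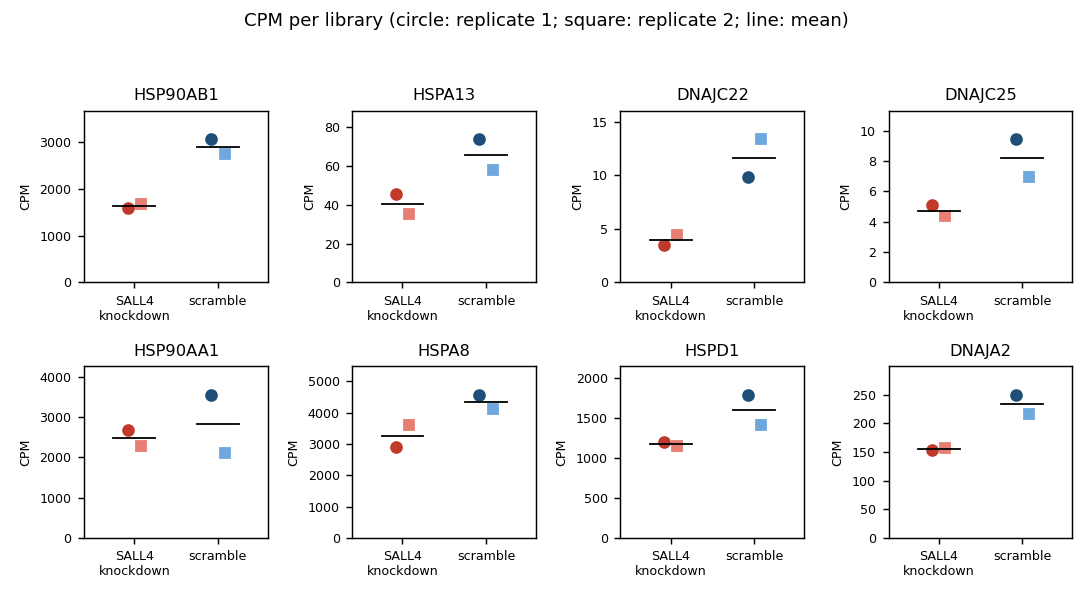
CPM in each library (y axes from 0) for the 4 members called lower after knockdown (top row) and for HSP90AA1, HSPA8, HSPD1 and DNAJA2, which were not called (bottom row), with circles for replicate 1, squares for replicate 2 and a line at each group mean. Both knockdown libraries lie below both scramble libraries in every panel except HSP90AA1.

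Heat shock elements are runs of the unit GAA and its reverse complement TTC, alternating with 2 bases between them. They were searched on both strands in the RefSeq promoter windows (250 bases before to 50 after each start, GRCh38.p14), which held 71 of the 82 members. A run of at least 3 units occurred in 7 members (9.86%; DNAJA1, DNAJB6, HSP90AA1, HSP90AB1, HSPA6, HSPA8 and HSPD1) against 0.608% of 27305 genes. A pair of units, GAANNTTC or TTCNNGAA, which every longer run also holds, occurred in 36.6% of members against 16.2% of genes. The runs before the start are printed below in the gene's own strand, since they are shared by members that were called and members that were not. Capitals mark the units and the bases between them.
HSP90AB1, chr6:44247763-44247858, plus strand: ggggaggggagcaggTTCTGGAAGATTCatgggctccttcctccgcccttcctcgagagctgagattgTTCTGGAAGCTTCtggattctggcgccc
HSP90AA1, chr14:102087105-102087147, minus strand: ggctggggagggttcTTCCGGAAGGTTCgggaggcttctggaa
HSPA8, upstream run, chr11:123062339-123062381, minus strand: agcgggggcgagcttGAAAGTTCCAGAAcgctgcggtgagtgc
HSPA8, run nearer the start, chr11:123062164-123062206, minus strand: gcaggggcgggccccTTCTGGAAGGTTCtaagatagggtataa
HSPA6, chr1:161524451-161524493, plus strand: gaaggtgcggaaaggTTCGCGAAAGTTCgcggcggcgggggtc
HSPD1, chr2:197500053-197500090, minus strand: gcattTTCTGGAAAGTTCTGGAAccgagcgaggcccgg
DNAJB6, chr7:157336858-157336900, plus strand: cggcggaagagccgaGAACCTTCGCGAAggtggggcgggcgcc
The HSP90AB1 runs lie 165 and 112 bases before the third of its 3 listed starts (44247943), inside the gene span. Those of HSPA8 lie 230 and 55 bases before its start, and that of HSPA6 lies 74 bases before. Of the 7 carriers only HSP90AB1 was called. DNAJC22, BAG4, DNAJB3, DNAJC1, DNAJC24, HSF1, HSPA12B, HSPA14, HSPA7, HSPB11 and HSPB2 were not matched in the promoter table. A match describes these letters only.

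The HSP70 family (HSPA with HSPH1) held 14 tested members, of which edgeR called 1 lower and 0 higher and DESeq2 called 1, while 3 had an unadjusted p under 0.05. The median log2 fold change was -0.10. The member called lower was HSPA13 (chromosome 21, 14371115 to 14383146), an HSP70-like ATPase of microsomes. HSPA13 had 45.3 and 35.3 CPM in knockdown replicates 1 and 2 and 73.7 and 57.9 CPM in scramble replicates 1 and 2. All knockdown values lay below all scramble values, and replicate 1 was the higher library in both groups. Its log2 fold change was -0.71 (SE 0.19, adjusted p = 0.0288), with adjusted p between 0.00747 and 0.303 over 11 alternatives, 6 of which kept the call. Leaving out knockdown replicate 2 gave an adjusted p of 0.244 and leaving out scramble replicate 1 gave 0.303, both above the threshold.

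HSPA8, the constitutive HSP70 of the cytosol, had 2907 and 3610.3 CPM after knockdown and 4568 and 4114 CPM in scramble. The groups did not overlap, but the log2 fold change of -0.41 (SE 0.21) did not pass (adjusted p = 0.314). HSPA9, the mitochondrial HSP70, had 951 and 1071 CPM against 1389 and 1341 CPM, a log2 fold change of -0.43 (adjusted p = 0.233). Both genes had the same order of libraries by group, without passing the threshold. HSPA4, an HSP110-type releasing factor, had 594 and 683 CPM against 690.1 and 584 CPM, and its log2 fold change was 0.00 (SE 0.19). HSPH1, another HSP110 protein and a strong heat shock target, had 334 and 330.3 CPM against 386 and 298 CPM, a log2 fold change of -0.04 (SE 0.19). In both, the knockdown values lay between the scramble values.

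The stress-inducible genes HSPA1A and HSPA6 were highest in 1 knockdown library. HSPA1A had 97.4 and 158 CPM in knockdown replicates 1 and 2 and 97.5 and 91.7 CPM in scramble replicates 1 and 2. HSPA6, which is nearly silent without stress in most cells, had 1.15 and 5.06 CPM against 1.71 and 2.52 CPM. HSPA1L, a relative of HSPA1A best known from testis, had 4.92 and 8.01 CPM against 5.46 and 5.52 CPM. Knockdown replicate 2 was the highest library for these 3 genes, while knockdown replicate 1 was the lowest for HSPA6 and HSPA1L and lay within 0.1 CPM of scramble replicate 1 for HSPA1A. HSPA1B, the inducible copy of HSPA1A, was flatter, at 72.9 and 86.5 CPM against 85.0 and 82.1 CPM. None passed the test (HSPA1A log2 fold change 0.43, SE 0.21, adjusted p = 0.276; HSPA6 0.56, SE 0.89, adjusted p = 0.853).

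Without knockdown replicate 1, both HSPA1A (0.74, adjusted p = 0.0410) and HSPA6 (1.26, adjusted p = 0.0144) were called higher. Without knockdown replicate 2 their log2 fold changes were 0.03 and -0.88 and neither was called. HSPA1A and HSPA1B are nearly identical copies, and their 250 bases before the start differ by 16 edits (93.6% identity), so reads may have been split between them by the authors' counting. The stretch around their shared pair of units is shown for that reason.
HSPA1A, chr6:31815412-31815469, plus strand: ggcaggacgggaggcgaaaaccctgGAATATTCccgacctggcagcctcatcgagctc
HSPA1B, chr6:31827608-31827665, plus strand: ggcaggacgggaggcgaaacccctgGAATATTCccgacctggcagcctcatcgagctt
Summed over both copies the level was 170.3 and 245 CPM in knockdown replicates 1 and 2 and 183 and 174 CPM in scramble replicates 1 and 2, again with knockdown replicate 2 highest and knockdown replicate 1 lowest.

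**Figure D3:**
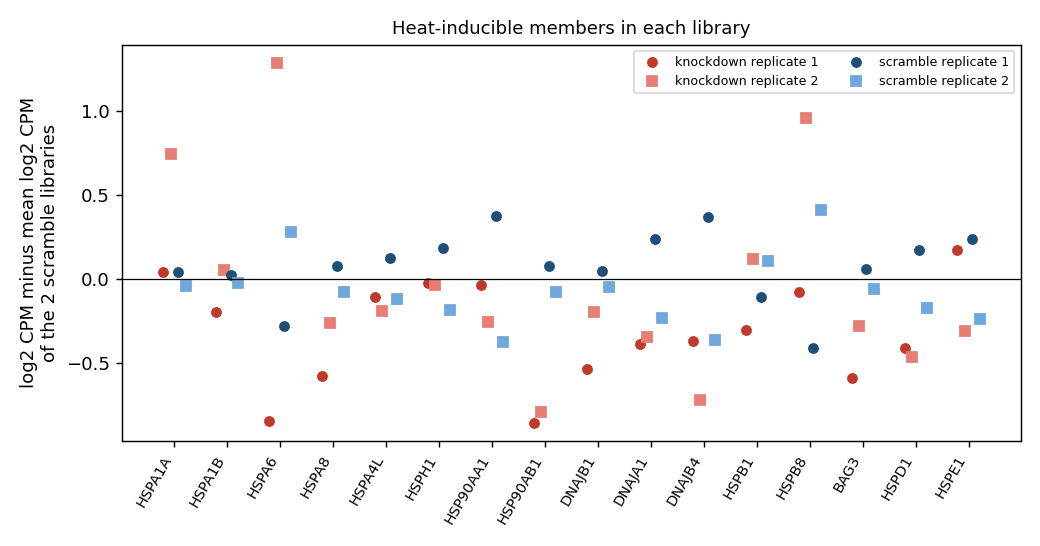
Levels in each library of the 16 members listed as heat-inducible, as log2 CPM minus the mean log2 CPM of the scramble libraries (y axis), with circles for replicate 1, squares for replicate 2, red for knockdown and blue for scramble. HSPA1A and HSPA6 are higher in knockdown replicate 2 (158 and 5.06 CPM) than in the other libraries, as is HSPB8 at under 1 CPM. HSPA1B and HSPB1 are also highest there, but only slightly. HSPA1B has 86.5 CPM against 85.0 CPM in scramble replicate 1, and HSPB1 has 238.6 CPM against 237.3 CPM in scramble replicate 2. Both HSP90AB1 knockdown points lie well below 0.

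The heat shock factors did not pass the test. HSF1, the main activator of the response, had 204 and 239.7 CPM after knockdown and 186 and 191 CPM in scramble (log2 fold change 0.23 with SE 0.18, adjusted p = 0.561). HSF2, which acts with HSF1 and in development, had 45.0 and 46.8 CPM against 42.4 and 39.5 CPM, a log2 fold change of 0.17 (adjusted p = 0.724). In both genes the knockdown libraries lay above the scramble libraries. Of 16 members listed as heat-inducible, HSP90AB1 alone was called by edgeR and by DESeq2. HSP90AB1 is the constitutive HSP90 form, so the list is not limited to inducible genes. Over its 16 members, 4 had an unadjusted p under 0.05 (edgeR), and the median log2 fold change was -0.17.

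All 7 subunits of the chaperonin TRiC under the rule had log2 fold changes below 0, from -0.61 to -0.11 with a median of -0.19, but 0 passed the edgeR threshold, DESeq2 called 1 (CCT4), which was also the 1 subunit with an unadjusted p under 0.05. CCT4 had 529 and 608 CPM in knockdown replicates 1 and 2 and 901 and 839.9 CPM in scramble replicates 1 and 2. Its groups did not overlap, and its log2 fold change was -0.61 (SE 0.19, edgeR adjusted p = 0.0603, DESeq2 adjusted p = 0.0189). CCT2 had 623 and 639 CPM against 910.5 and 734 CPM (log2 fold change -0.38, adjusted p = 0.305).

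The others were closer together. CCT3 had 960.6 and 1144 CPM after knockdown against 1186 and 1175 CPM, and TCP1, the alpha subunit, had 453 and 464 CPM against 559 and 477 CPM. CCT7 had 764 and 934 CPM against 983 and 959 CPM, and CCT8 had 353 and 378 CPM against 459 and 404 CPM. In these 4 genes the higher knockdown library came near the lower scramble library without reaching it. CCT5, at 517 and 586 CPM against 632 and 558 CPM, was the only subunit whose groups overlapped. Summed CPM over the 7 subunits was 4201 and 4753 after knockdown and 5629 and 5146 in scramble. Of all genes at 10 CPM or more, 26.9% were lower after knockdown without overlap of the groups, and 52.0% had a log2 fold change below 0. The subunits form 1 complex and come from the same libraries, so they are not independent observations.

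**Figure D4:**
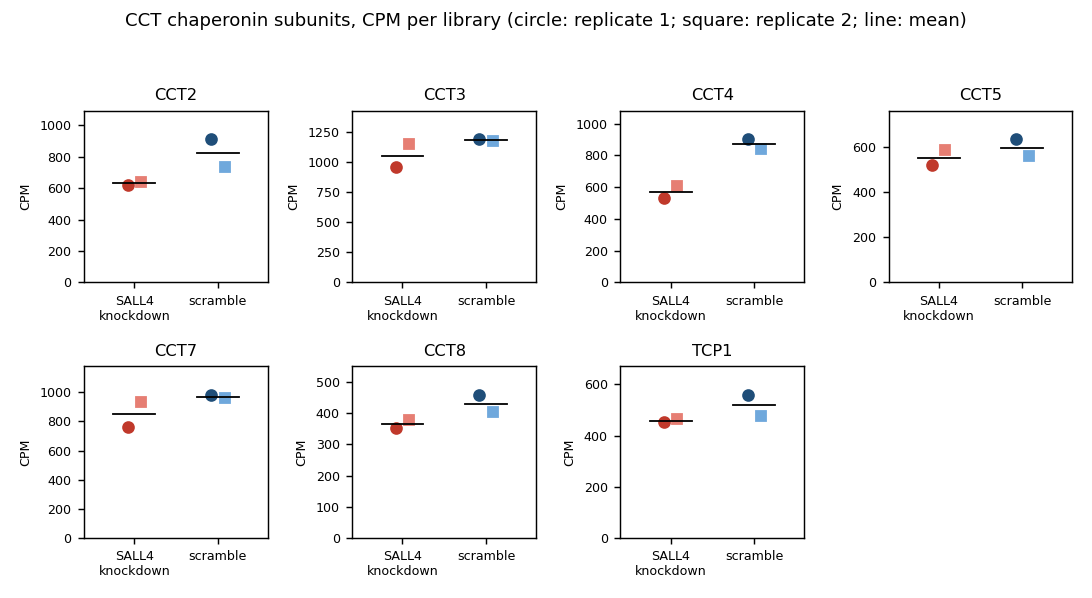
CPM in each library (y axes from 0) for the 7 chaperonin subunits, with circles for replicate 1, squares for replicate 2 and a line at each group mean. Both knockdown libraries lie below both scramble libraries in 6 panels, and CCT5 overlaps.

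HSPD1 and HSPE1 form the chaperonin of mitochondria and are transcribed from a shared promoter in opposite directions. HSPD1 had 1195 and 1149 CPM after knockdown and 1787 and 1411 CPM in scramble (log2 fold change -0.45 with SE 0.20, adjusted p = 0.230). HSPE1 had 104 and 74.1 CPM against 108 and 78.0 CPM (log2 fold change -0.07 with SE 0.20, adjusted p = 0.922). HSPD1 was lower in both knockdown libraries, whereas HSPE1 followed the replicate number, with replicate 1 higher in each group.

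Of the J-domain proteins, 37 were tested. The 2 that edgeR called belong to the DNAJC class, a mixed class that shares little beyond the J domain. DNAJC22 (chromosome 12, 49346888 to 49353690), a membrane J-protein, had 3.48 and 4.43 CPM in knockdown replicates 1 and 2 and 9.82 and 13.3 CPM in scramble replicates 1 and 2. The groups were far apart relative to their spread. The group means were 11.6 ± 2.49 CPM in scramble and 3.95 ± 0.675 CPM after knockdown (SD, n = 2 each), 2.93-fold apart. The log2 fold change was -1.55 with an SE of 0.24 (edgeR, adjusted p = 0.000239). It was called in all 11 alternatives without a replicate term (adjusted p 1.52e-08 to 0.0217), and it had the largest change among the tested members.

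DNAJC25 (chromosome 9, 111631334 to 111654345), a membrane J-protein, had 5.08 and 4.35 CPM after knockdown and 9.42 and 6.93 CPM in scramble. The groups did not overlap, and the log2 fold change was -0.79 (SE 0.24, adjusted p = 0.0462). The call held in 4 of 11 alternatives (adjusted p 0.0132 to 0.410) and was lost when knockdown replicate 1 (0.0977), knockdown replicate 2 (0.243) or scramble replicate 1 (0.410) was left out. Over the 25 DNAJC members the median log2 fold change was 0.00, DESeq2 called 2 and 5 had an unadjusted p under 0.05.

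The only member higher at an unadjusted p under 0.05 was DNAJC10 (ERdj5), a reductase of the endoplasmic reticulum. It had 149 and 117 CPM after knockdown and 104 and 74.4 CPM in scramble (log2 fold change 0.58 with SE 0.20, adjusted p = 0.0926). DNAJC2, a J-protein of the ribosome, lay on the other side, at 65.2 and 53.4 CPM against 106 and 71.8 CPM (log2 fold change -0.58, adjusted p = 0.0947). The groups of both genes did not overlap, and replicate 1 was the higher library throughout.

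The DNAJC members with the most counts, DNAJC8 and DNAJC5, overlapped between groups. DNAJC8, a splicing-associated J-protein, had 162 and 177 CPM against 173 and 159 CPM. DNAJC5, the cysteine string protein of vesicles, had 109 and 135 CPM after knockdown and 118 and 142 CPM in scramble, with replicate 2 higher in both groups. Their log2 fold changes were 0.03 and -0.09.

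The DNAJA and DNAJB proteins are the classical partners of cytosolic HSP70. None of the 4 DNAJA or 8 tested DNAJB members was called by edgeR, DESeq2 called 1 (DNAJA2), and an unadjusted p under 0.05 was found for 1 and 2 of them. DNAJA1 had 273 and 281 CPM after knockdown and 420 and 303 CPM in scramble (log2 fold change -0.38, adjusted p = 0.299). DNAJA2 had 153 and 157 CPM against 249.8 and 217 CPM (log2 fold change -0.59, SE 0.18, edgeR adjusted p = 0.0538, DESeq2 adjusted p = 0.0239). DNAJB1, the main heat-inducible J-protein, had 88.9 and 112 CPM against 133 and 124 CPM (log2 fold change -0.35, adjusted p = 0.314). In these 3 genes each knockdown library lay below each scramble library.

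DNAJB6, a suppressor of polyglutamine aggregation, had 148 CPM in both knockdown libraries and 206 and 179 CPM in scramble (log2 fold change -0.38, adjusted p = 0.262). DNAJB2, with 76.9 and 96.8 CPM against 83.7 and 111 CPM, overlapped between groups. Family medians were -0.30 for DNAJA and -0.25 for DNAJB.

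Several BAG proteins release ADP from HSP70. Of the 6 BAG members, 0 were called by edgeR or DESeq2, with 1 (BAG3) at an unadjusted p under 0.05. BAG3, the stress-inducible member that serves selective autophagy, had 25.9 and 32.2 CPM after knockdown and 40.6 and 37.5 CPM in scramble (log2 fold change -0.43 with SE 0.19, adjusted p = 0.220). BAG6, which guards tail-anchored proteins, had 294 and 358 CPM against 309 and 312 CPM. BAG5 had 119 and 110.2 CPM against 129 and 111 CPM. The BAG3 groups did not overlap, while those of BAG6 and BAG5 did.

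Small heat shock proteins were led by HSPB1 (HSP27), which had 178 and 239 CPM after knockdown and 204 and 237 CPM in scramble, overlapping and with replicate 2 higher in both groups (log2 fold change -0.08, SE 0.19). HSPB11 had 27.4 and 23.3 CPM against 35.1 and 29.2 CPM (log2 fold change -0.34, adjusted p = 0.373). HSPB6, HSPB7, HSPB8 and HSPB9 stayed below 0.4 CPM in every library, so a change in them was hardly detectable. None of the 6 tested HSPB members was called by edgeR, and 0 had an unadjusted p under 0.05. DESeq2 called none either, but it gave no adjusted p to HSPB6, HSPB7 and HSPB8.

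The name of the authors' deposited table of this comparison speaks of 3 libraries per group, where 2 per group were held here, so its values may rest on other samples. The authors' deposited table listed 71 members, of which 20 were lower and 5 higher at their adjusted p under 0.05, against 19.8% and 17.2% of its 15141 genes. In the authors' deposited table the log2 fold change was -0.56 for HSP90AB1, -1.50 for DNAJC22, -0.69 for HSPA13 and -0.78 for DNAJC25. The higher members in the authors' deposited table were HSF1 (0.20), HSPA1A (0.37), DNAJC10 (0.55), DNAJC7 (0.29) and DNAJB14 (0.29). The members' share of lower calls there was above that table's own share, and their share of higher calls was below it.

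Genes that work with the members were followed in 7 lists. Of 108 tested partner genes, 6 fell and 0 rose by edgeR, 5.56% and so near the background, while 23 had an unadjusted p under 0.05 in either direction and DESeq2 called 7. PPID (cyclophilin 40), an HSP90 cochaperone, had 21.1 CPM in both knockdown libraries and 72.6 and 63.5 CPM in scramble (log2 fold change -1.69 with SE 0.19, adjusted p = 4.74e-06). TOMM70, the mitochondrial import receptor that docks HSP70 and HSP90, had 92.3 and 86.4 CPM against 153 and 125 CPM (-0.64, adjusted p = 0.0375). The TOMM70 call held in 6 of 11 alternatives, and leaving out knockdown replicate 1 (0.0919), knockdown replicate 2 (0.161) or scramble replicate 1 (0.352) ended it. PPID and TOMM70 were 2 of 27 HSP90 cochaperones and cyclophilins, a list with a median of -0.18. Of the 2 with the most counts, STIP1 (HOP), which joins HSP70 to HSP90, had 396 and 485 CPM against 641 and 619 CPM without passing (-0.52, adjusted p = 0.122), and FKBP4, a cochaperone of steroid receptors, had a log2 fold change of 0.00.

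GRPEL1, the nucleotide exchange factor of mitochondrial HSP70, had 43.5 and 46.9 CPM after knockdown and 93.4 and 103 CPM in scramble (log2 fold change -1.12 with SE 0.18, adjusted p = 0.000389). It was the 1 call among 12 HSP70 cofactors (median -0.16). MRPL18, a mitochondrial ribosomal protein with a heat-induced cytosolic form, had 19.7 and 21.3 CPM against 51.8 and 42.8 CPM (-1.20, adjusted p = 0.000341), the 1 call among 16 other heat shock targets (median -0.02). PPID, GRPEL1 and MRPL18 each had groups that were far apart relative to their spread and were called in all 11 alternatives.

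HSBP1L1, related to the HSF1-binding protein HSBP1, had 5.93 and 6.12 CPM against 10.7 and 11.7 CPM (-0.89, adjusted p = 0.0137), the 1 call among 12 tested HSF1 regulators. It held in 7 of 11 alternatives, and of the fits without 1 replicate only that without scramble replicate 1 kept it (adjusted p 0.0312 to 0.102). Among 12 endoplasmic reticulum chaperones left out of the members HSPA5 (BiP) was called (-0.71, adjusted p = 0.0359), with 140.0 and 132 CPM against 268 and 176.5 CPM. The HSPA5 call held in 4 of 11 alternatives, and was lost when knockdown replicate 1 (0.0676), knockdown replicate 2 (0.112) or scramble replicate 1 (0.541, log2 fold change -0.38) was left out. DNAJB9, DNAJB11 and DNAJC3 had log2 fold changes of -0.40, -0.28 and -0.13 and were not called. None of 13 prefoldin and TRiC partners or 16 quality control genes was called by edgeR, DESeq2 called 1 and 0, and an unadjusted p under 0.05 was found for 1 and 3.

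SALL4 binding near the members was compared with the authors' list of regions common to their 3 CUT&RUN libraries. Of 68 members with a tabulated start, 4 (5.88%) had a common region within 3 kb of it, against 7.84% of 12505 genes, so members were near the background. These were CCT2 (region on chromosome 12, 69584236 to 69586568), DNAJB4 (chromosome 1, 78001512 to 78007031), DNAJC16 (chromosome 1, 15524861 to 15528406) and HSP90AA1 (chromosome 14, 102137575 to 102140337). The region of HSP90AA1 lies at its distal start at 102139749 and not at the start at 102087044 beside the printed heat shock element. None of these regions held a position covered in all 3 libraries, and none of these 4 genes was called after knockdown. Counting either end of a gene's span, 10 of 75 members (13.3%) had a common region within 3 kb, against 9.44% of genes.

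The members called lower had no common region nearby. The nearest lay 619989 bp from a start of HSP90AB1, 107488 bp from that of HSPA13 and 1228160 bp from that of DNAJC25, and it lay 566131 bp from the span of DNAJC22. Peaks called in single libraries were more frequent. A peak lay within 1 kb of a start in 21, 37 and 36 of the 68 members in libraries 1, 2 and 3 (30.9%, 54.4% and 52.9%), against 18.0%, 42.5% and 43.2% of all genes. Among genes at 10 CPM or more the members' shares were 32.7%, 59.6% and 55.8%, against 22.4%, 46.5% and 49.4%. HSPA13 was such a gene, with a peak 106, 141 and 0 bp from its start in libraries 1, 2 and 3, while HSP90AB1 had one at 186 and 0 bp in libraries 2 and 3 but at 43010 bp in library 1. How often IgG gives a peak at these starts was not analysed here.

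**Figure D5:**
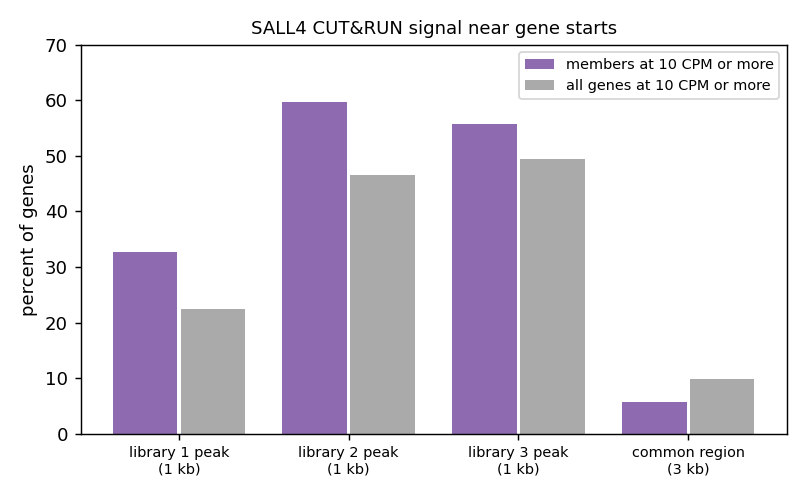
Percent of genes at 10 CPM or more (y axis) with a SALL4 peak within 1 kb of the start in each CUT&RUN library and with a common region within 3 kb, for members (purple) and all genes (grey). Members lie above all genes for the single libraries (32.7% against 22.4% in library 1) and below them for the common list (5.77% against 9.77%).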

How the data were processed

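Per the submitters' processing notes, tools include STAR, featureCounts, BWA 0.7.17-r1188, SEACR 1.1 and HOMER 4.10 with build hg38; the annotation and the strand setting are not given in these sources, so reads of genes that overlap cannot be separated. The deposited library tables hold raw counts per gene symbol and were used as they stand. A deposited combined count matrix of 33514 genes with lower totals was an alternative: it held 39.9% to 44.4% of the HSP90AB1 counts of the library tables, and a median of 63.6% to 88.2% over genes with at least 100 counts. The authors' deposited table holds p-values, log2 fold changes and, unused here, a log odds score. Peak files give the authors' signal per peak, and the common list gives coordinates.

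Genes passing filterByExpr were scaled by TMM and tested with the robust quasi-likelihood F test of edgeR 4.0.16 (R 4.3.3), without further terms than group, adjusted by Benjamini-Hochberg over 25804 genes and a threshold of 0.05. CPM use these scaled library sizes. The fit was tested on simulated data. DESeq2 1.42.0 was an alternative. At this depth counting error limits only members below 1 CPM; for the others precision rests on how far replicates differ. Starts and promoter sequences are those of RefSeq, GRCh38.p14. Members and lists were chosen with earlier results of these data known. Genes named are the called members, the 3 highest of each family by mean CPM, a set of 16 heat shock genes, and of each partner list the called genes and some of its 2 highest; CCT4, the remaining CCT subunits, DNAJA2, DNAJC2, DNAJC10 and HSPA1L were added after their values were seen, as was the assignment to organelles.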

Additional observations from a re-analysis of the deposited data

How the results depend on the processing

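The count of called members (4) was 2 with scaling by total counts, 8 without a filter, 2 in the combined matrix, 2 without the mitochondrial and endoplasmic reticulum members (chosen after seeing the data) and 2 to 5 when each replicate was left out in turn (2 without knockdown replicate 2 or scramble replicate 1). All genes called (1433) numbered 591 with scaling by total counts, 725 with a 5 CPM filter, and 810 to 1191 when each replicate was left out. With the replicate number as a block, 14 of the 76 tested members (12 lower, 2 higher) were called. Among all genes 4921 of 25804 were called, so the members' share was near the background. The genes called with the block are not split by direction here. The 4 called members were among the 14: HSPA13 (edgeR adjusted p = 4.67e-06), DNAJC25 (2.14e-05), DNAJC22 (1.40e-20) and HSP90AB1 (0.00207). Except for HSP90AB1, these values lie below the ranges given over the 11 alternatives, which leave this block out. With only 2 numbers per group the labels do not show that they pair the libraries; the replicate differences of the groups correlated across 14292 genes (r = 0.567), and genes are not independent replicates. Members near a common region (4) numbered 7 within 10 kb, 0 with a position in all 3 libraries and 10 for either end of the span (chosen after seeing the data). For 71 genes (those of the naming rule and others given with fitted values), 752 of 848 log2 fold changes kept direction and call, 36 lost and 27 gained a call, and 33 changed sign, none of them in a called gene. Among these 71 genes, those that changed sign when each replicate was left out in turn ranged over BAG2 -0.19 to 0.0867, BAG5 -0.16 to 0.0464, BAG6 -0.0892 to 0.21, CANX -0.28 to 0.0406, DNAJB2 -0.36 to 0.0625, DNAJC3 -0.27 to 0.041, DNAJC5 -0.26 to 0.0624, DNAJC8 -0.0471 to 0.0909, FKBP4 -0.11 to 0.11, HSP90AA1 -0.50 to 0.23, HSPA1B -0.21 to 0.0518, HSPA1L -0.17 to 0.55, HSPA4 -0.11 to 0.13, HSPA6 -0.88 to 1.26, HSPB1 -0.32 to 0.11, HSPE1 -0.33 to 0.18, HSPH1 -0.21 to 0.15, NPLOC4 -0.12 to 0.0493, TRAP1 -0.12 to 0.13 and UBB -0.41 to 0.0176. FKBP4 and HSPA4 were -0.00127 and -0.00225 with RLE scaling and -0.0023 and -0.00378 with DESeq2. HSPH1 and NPLOC4 were 0.00851 and 0.0157 with scaling by total counts, and HSPB9 was -0.0371 in the combined matrix. Where 1 library of a group was left, it was assumed to vary like the other group. The cause was not tested. Members below 1 CPM are limited by depth.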

Other observations

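The zeta subunits of TRiC carry a letter in their symbols and so fell outside the symbol rule. CCT6A had 787 and 758 CPM in knockdown replicates 1 and 2 and 1170.4 and 892 CPM in scramble replicates 1 and 2 (log2 fold change -0.42, edgeR adjusted p = 0.264), on the low side like the other subunits. CCT6B, the testis-enriched form, had 2.84 and 2.54 CPM against 1.16 and 1.00 CPM and was called higher (log2 fold change 1.32, SE 0.28, adjusted p = 0.00573), with groups that did not overlap; without scramble replicate 2 its adjusted p was 0.0548. TRAP1, the HSP90 of mitochondria, had 117 and 138 CPM against 127 and 125 CPM, overlapping, with a log2 fold change of 0.01. The readthrough symbols DNAJC25-GNG10 and HSPE1-MOB4 had 0 counts in every library. GNG10, the neighbour of DNAJC25, had 2.14 and 2.85 CPM against 1.21 and 1.48 CPM (log2 fold change 0.89, adjusted p = 0.0678), opposite in sign to DNAJC25. CCT6A, CCT6B, TRAP1 and GNG10 were chosen after the members' values were seen.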
